A study of Homo sapiens with 6 samples.

Results

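The loci of 6 genes, MARVELD1, ZFYVE27, NRCAM, ABCC11, CALD1 and ACSL5, were examined for accessible chromatin by DNase-seq in A549, an established cell line from a human lung adenocarcinoma. In DNase-seq, DNase I digests chromatin where it is open and the cut ends are sequenced, so that a called peak marks a stretch cut above the caller's background. Treatment was with the synthetic glucocorticoid dexamethasone at 100 nM for 1 h, or with 0.02% ethanol as vehicle for 1 h, with 3 libraries per treatment numbered 1 to 3. The labels do not say whether a treatment's libraries stem from separate cultures, so the variation among them may be technical. All come from a single cancer cell line. The loci are 5 windows of hg19, each built on a run of regions called dexamethasone-only here (3 of 3 dexamethasone libraries with a peak, 0 of 3 ethanol libraries), with 50 kb added on either side. A run is at least 3 such regions with steps of at most 50 kb between centres. Peaks of the 6 lists that shared at least 1 bp were merged, which gave 69 regions in the windows out of 81216 in all. The windows thus rest on the calls themselves, so every count of dexamethasone-only regions below describes what was chosen and no test is given. The lists hold 58281 to 61344 peaks and no read counts. The depth is therefore unknown, and a missing peak means that the caller's threshold was not passed, not that the site was closed.

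Dexamethasone enters the cell and binds the glucocorticoid receptor, a ligand-activated transcription factor that moves to the nucleus and binds DNA, often at a palindrome of hexamers. Bound receptor recruits coactivators and chromatin remodellers, and sites that become more accessible to DNase I after hormone can lie far from gene starts. MARVELD1 encodes a membrane protein with a MARVEL domain. ZFYVE27 encodes protrudin, an endoplasmic reticulum protein that takes part in membrane traffic during the outgrowth of cell protrusions. NRCAM is a cell adhesion molecule of the immunoglobulin superfamily, best known from neurons. ABCC11 is an ATP-binding cassette transporter that exports organic anions and is known for its part in apocrine secretion. CALD1 encodes caldesmon, which binds actin, tropomyosin and calmodulin and restrains actomyosin. ACSL5 activates long-chain fatty acids to acyl-CoA. The genes were brought together by the pattern of peaks at their loci, not by a shared function.

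Sequence of hg19 was not used here, so the peaks are given by position and no motif was sought in them. The assignment of genes to windows comes with the definition of the loci and was not checked against an hg19 annotation. In the gene order of RefSeq on GRCh38, MARVELD1 follows AVPI1 and is followed by ZFYVE27 and then SFRP5 among protein-coding genes. NRCAM lies between LAMB4 and PNPLA8, ABCC11 between ABCC12 and LONP2, CALD1 between BPGM and AGBL3, and ACSL5 between TECTB and ZDHHC6. For the gene starts themselves, RefSeq promoter sequences on GRCh38 (250 bases before to 50 after a start) were found for 6 of 6 genes, 14 starts in all. On both strands, 0 of the 14 held the glucocorticoid receptor palindrome with 3 free bases at its centre, which 0.39% of 35116 promoters of this length hold. The receptor hexamer AGAACA, which can also lie inside the palindrome, was present in 2 of 14, against 14.8% of all promoters. One was the start of CALD1 lying last along the chromosome, the other an ACSL5 start. They are shown because they are the promoters of these genes that hold the hexamer, which is in capitals. Their place relative to the hg19 peaks was not determined.
CALD1 promoter, GRCh38 chr7:134891208-134891507, plus strand: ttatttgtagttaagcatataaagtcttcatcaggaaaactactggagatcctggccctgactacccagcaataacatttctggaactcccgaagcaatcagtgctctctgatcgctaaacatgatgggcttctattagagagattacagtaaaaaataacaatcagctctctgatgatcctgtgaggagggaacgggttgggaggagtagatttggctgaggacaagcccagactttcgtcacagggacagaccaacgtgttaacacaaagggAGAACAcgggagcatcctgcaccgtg
ACSL5 promoter, GRCh38 chr10:112375955-112376254, plus strand: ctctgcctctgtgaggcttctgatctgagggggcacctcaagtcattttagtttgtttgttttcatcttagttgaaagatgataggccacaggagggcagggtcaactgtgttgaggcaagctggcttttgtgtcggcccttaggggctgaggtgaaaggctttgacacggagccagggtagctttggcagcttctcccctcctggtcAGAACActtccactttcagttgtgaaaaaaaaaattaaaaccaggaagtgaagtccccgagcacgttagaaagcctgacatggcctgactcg
Among the 14 starts, the AP-1 motif TGANTCA was present in 3 (7.71% of all promoters), the C/EBP motif TTGCNNAA in 3 (10.5%), the forkhead motif TGTTTAC in 1 (3.42%) and the CTCF core motif in 0 (1.47%). A match is a match of letters only.

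Of the 69 regions, 16 (23.2%) were dexamethasone-only, the pattern that defined the windows; over all merged regions this pattern made up 1.10%. Only 1 region had the reverse pattern of 3 ethanol and 0 dexamethasone libraries, which 0.662% of all regions had, and 22 (31.9%) were called in all 6 libraries, which 49.2% of all regions were. The remaining 30 were partly called: 13 in more dexamethasone than ethanol libraries, 13 in more ethanol libraries and 4 in equal numbers. Over all partly called regions, 37.8% leaned to dexamethasone and 44.4% to ethanol. The windows together held 52, 52 and 49 peaks in dexamethasone libraries 1 to 3, against 32, 37 and 38 in ethanol libraries 1 to 3. Without the peaks of the dexamethasone-only regions, 35, 36 and 32 peaks were left in the dexamethasone libraries, against the same 32, 37 and 38 in the ethanol libraries. The remaining counts overlapped between treatments, as did the remaining covered length, 12.2, 14 and 11.9 kb with dexamethasone against 12.5, 13.8 and 14 kb with ethanol. By definition only dexamethasone peaks were taken out, and the ethanol-only region was kept. This overlap therefore follows in part from the choice of what was removed, and no conclusion is drawn from it. When equally numbered libraries were taken as pairs, and the calls had to differ in 1 direction in at least 2 of 3 pairs and never in the other, 19 regions were called with dexamethasone in place of 16, and 5 with ethanol in place of 1. Over all merged regions the paired rule was met by 4.47% with dexamethasone and by 4.80% with ethanol, so the order of the treatments was the reverse of that in the unpaired shares.

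**Figure D1:**
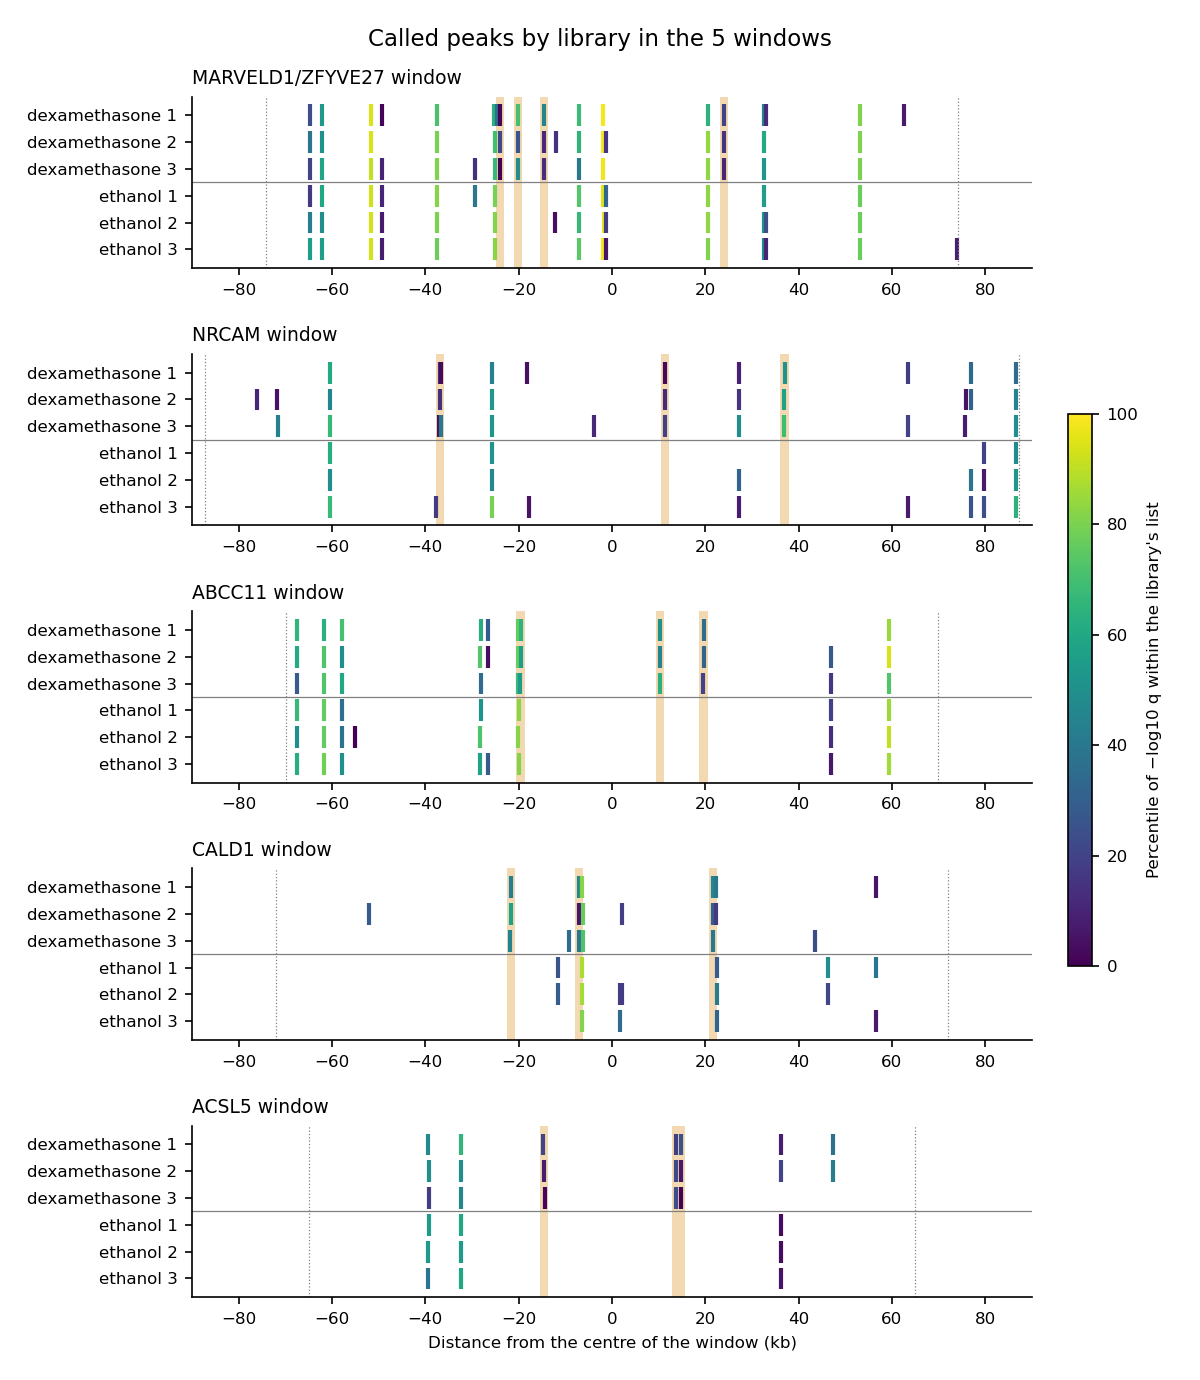
Called peaks of each library (rows, dexamethasone above ethanol) against the distance from the centre of each window in kb, with the window's edges dotted. Colour gives the percentile of −log10 q within the library's own list, and tan bands, drawn wider than the regions, mark the 16 dexamethasone-only regions. Ethanol marks seen on a band are peaks of neighbouring regions, since no ethanol peak overlaps a dexamethasone-only region itself.

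**Figure D2:**
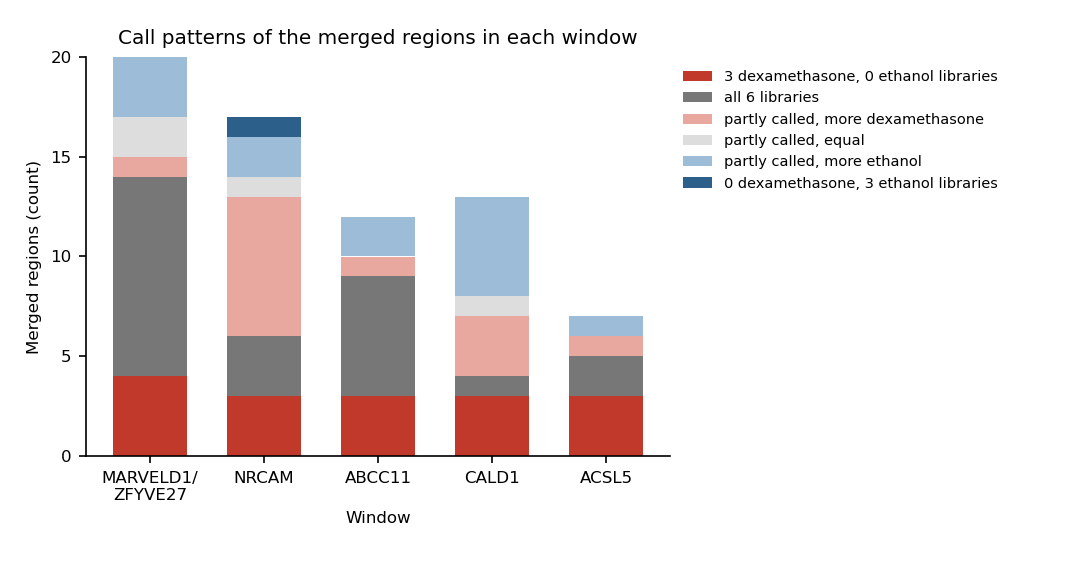
Number of merged regions in each window by call pattern, stacked. Dexamethasone-only regions number 4 in the MARVELD1/ZFYVE27 window and 3 in each of the other windows, while regions called in all 6 libraries range from 1 in the CALD1 window to 10 in the MARVELD1/ZFYVE27 window.

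The MARVELD1 and ZFYVE27 window, chr10:99424575-99572975, was the richest, with 20 regions, 10 of them called in all 6 libraries. Its 4 dexamethasone-only regions spanned 48.4 kb, with steps from 3.90 to 38.6 kb. The highest mean percentile of −log10 q among them, 48.5, was at chr10:99478394-99478863, where the fold enrichment at the summit, the authors' value for a peak against the caller's background in its own library, was 7.07, 4.17 and 5.23 in dexamethasone libraries 1 to 3. No ethanol library had a peak there. Its percentiles of −log10 q, where 100 is the strongest peak of a list, were 70.4, 26.4 and 48.7. The site thus stood in the upper part of the list in library 1, near the middle in library 3 and in the lower part in library 2, and it was no longer dexamethasone-only when summits within 100 bp were joined. The region at chr10:99484075-99484428 had folds of 7.81, 5.16 and 5.05, again highest in library 1, and the highest mean fold of the run, 6.01 ± 1.56 (SD, n = 3). At the far end of the run, chr10:99522670-99522975 had folds of 4.10, 3.70 and 3.55. The weakest of the 4, chr10:99474575-99474872, had folds of 2.62, 3.51 and 2.58 and −log10 q of 4.74, 9.94 and 3.73. Its percentiles of 1.3, 21.8 and 0.3 put it at the bottom of 2 of the lists. This weak region disappeared as a dexamethasone-only call when only peaks with −log10 q of at least 5 were kept, when the lists were given one length and when peaks were merged across gaps of up to 100 bp. The strongest region of the window, chr10:99496617-99497285, was called in all 6 libraries, at percentiles, on lists of one length, of 98.8, 98.5 and 97.7 with dexamethasone against 95.0, 96.8 and 98.1 with ethanol, which overlapped.

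The NRCAM window, chr7:107825443-107999760, had the longest run, 3 dexamethasone-only regions over 74.3 kb with steps of 48.1 and 25.6 kb. The region at chr7:107949354-107949760 had the highest mean percentile of all 16, 58.7. Its folds were 8.02, 9.54 and 9.33 in dexamethasone libraries 1 to 3, a mean of 8.96 ± 0.82 (SD, n = 3), with −log10 q of 19.8, 24.6 and 29.7. Library 1 was lowest in both measures, and the nearest ethanol peak was 9.31 kb away. The region at chr7:107923792-107924026 was narrow, 235 bp, and weak, with folds of 4.19, 4.91 and 4.96. The third, chr7:107875443-107876146, was 704 bp wide because dexamethasone libraries 1 and 3 each had a pair of peaks there and library 2 had 1. Its strongest summits lay up to 352 bp apart, since library 3 was strongest at the second peak of its pair. Yet libraries 1 to 3 all had a summit close together, at 107875645, 107875718 and 107875713. The region stayed dexamethasone-only when summits within 100 bp were joined. An ethanol library 3 peak ended 389 bp before it. The window held 3 regions called in all 6 libraries and 7 partly called regions leaning to dexamethasone, against 2 leaning to ethanol. Over all partly called regions the shares were 37.8% and 44.4%. It also held the ethanol-only region, chr7:107992166-107992487, with folds of 5.61, 4.70 and 5.31 in ethanol libraries 1 to 3. Ethanol-only regions in the windows numbered 2 without dexamethasone library 2, 2 without ethanol library 1 and 3 without ethanol library 3. Over all merged regions they rose as well, from 538 to 1057, 1460 and 1101. Dexamethasone-only regions here numbered 5 without dexamethasone library 1 and 5 under the pairing of equally numbered libraries. Over all merged regions their share rose from 1.10% to 1.76% and 4.47% under these rules.

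In the ABCC11 window, chr16:48149203-48288805, 2 of 3 dexamethasone-only regions had mean percentiles above 50, the only such pair in 1 window. At chr16:48199203-48199615 the folds were 7.55, 7.23 and 7.12, a mean of 7.30 ± 0.22 (SD, n = 3), the second smallest spread of the 16 regions after 1 in the ACSL5 window. Its percentiles were 65.2, 55.7 and 54.6 and its summits fell within 19 bp of each other in the 3 libraries. At chr16:48229016-48229463 the folds were 7.52, 6.99 and 8.70 and the summits fell within 23 bp. The nearest ethanol peak and the nearest region of all 6 libraries were both 29.8 kb away from it, while the next dexamethasone-only region was 9.39 kb away by centres. The weakest of the run, chr16:48238455-48238805, had folds of 6.10, 5.58 and 4.87 and summits within 10 bp, the tightest of all 16. The strongest region of the window, chr16:48277985-48278762, was called in all 6 libraries, at percentiles, on lists of one length, of 84.4, 93.8 and 72.7 with dexamethasone against 84.9, 90.7 and 85.5 with ethanol, which overlapped.

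The CALD1 window, chr7:134510596-134654520, had a single region called in all 6 libraries, chr7:134575964-134576448, and 9 partly called ones. Its dexamethasone-only regions lay over 43.9 kb. At chr7:134560596-134561089 the folds were 7.73, 9.49 and 7.28 in dexamethasone libraries 1 to 3, and the nearest ethanol peak was 9.69 kb away. At chr7:134575316-134575615 they were 5.01, 3.44 and 4.95, with percentiles of 46.3, 5.8 and 39.1, so that library 2 lay far below the other two. At chr7:134603921-134604520, 600 bp wide, they were 6.72, 5.47 and 5.54. The 3 peaks of that region covered 520 bp in common, yet the summits lay up to 317 bp apart, with library 1 near the start and libraries 2 and 3 near the end, and the region was no longer dexamethasone-only when summits within 100 bp were joined. Partly called regions leaned to ethanol in 5 cases and to dexamethasone in 3 here. Over all partly called regions 44.4% leaned to ethanol and 37.8% to dexamethasone. In 3 of the 5, no dexamethasone library and 2 ethanol libraries had a peak, a pattern whose share over all merged regions was not determined.

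The ACSL5 window, chr10:114042282-114171998, had the fewest regions, 7. Its 3 dexamethasone-only regions had mean percentiles of 9.9, 21.4 and 10.7. At chr10:114120611-114121028 the folds were 4.92, 5.12 and 5.22, with −log10 q of 9.21, 10.02 and 10.2, nearly equal in the 3 libraries. Its neighbour 1.03 kb away, chr10:114121693-114121998, had folds of 5.38, 4.17 and 3.49 and −log10 q of 10.9, 6.36 and 4.14, lowest in library 3, and was no longer dexamethasone-only on lists of one length. The third, chr10:114092282-114092861, had folds of 5.10, 4.51 and 3.70. The peaks of dexamethasone libraries 1 and 3 shared 0 bp there: each overlapped only the peak of library 2, which joined them to 1 region. It was no longer dexamethasone-only when a minimum cover of 50% of the region was required, when summits within 100 bp were joined or without dexamethasone library 2. With −log10 q of at least 5, a single dexamethasone-only region was left in this window in place of 3. The strongest region of all 6 libraries, chr10:114074646-114074957, reached percentiles, on lists of one length, of 65.4, 47.1 and 45.7 with dexamethasone against 59.4, 52.8 and 57.3 with ethanol, which overlapped.

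**Figure D3:**
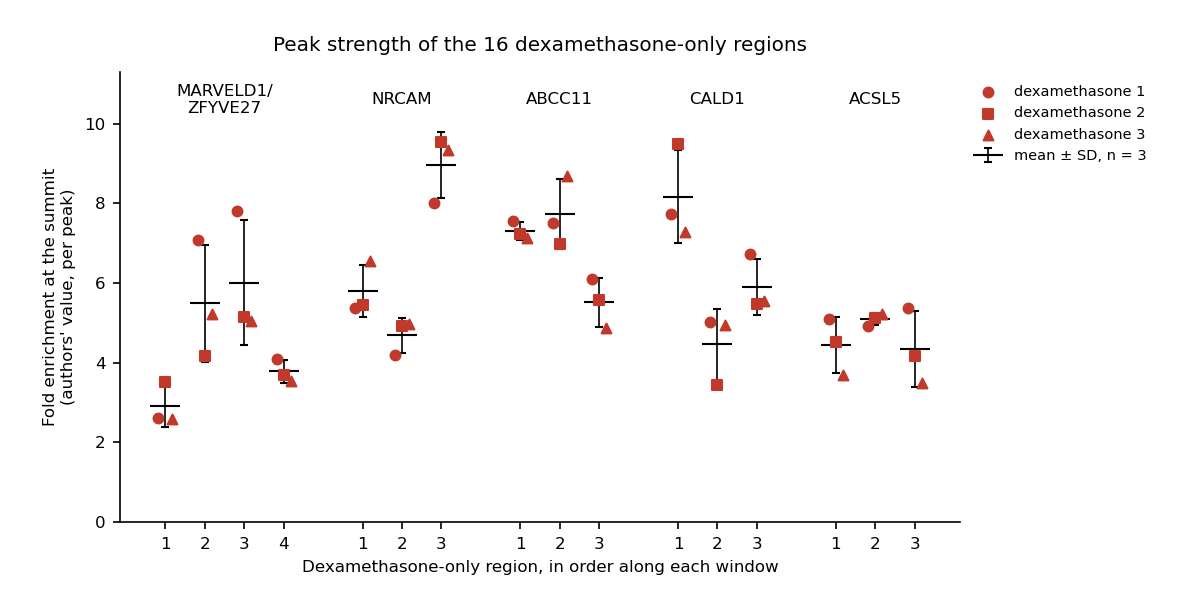
Fold enrichment at the summit of the 16 dexamethasone-only regions in order along each window, with 1 point per dexamethasone library and the mean ± SD (n = 3) in black. By definition, no ethanol library had a peak in any of them. Means run from 2.91 in the MARVELD1/ZFYVE27 window to 8.96 in the NRCAM window.

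As a group the 16 regions resembled the 881 dexamethasone-only regions elsewhere in strength, which is given as a description since both were chosen by the same calls. The median of the mean percentile was 25.9 (range 7.76 to 58.7) in the windows and 24.7 elsewhere, and the median of the mean fold was 5.50 in the windows and 5.44 elsewhere. Above the 50th percentile lay 3 of 16 (18.8%) in the windows and 87 of 881 (9.88%) elsewhere. The median width was 410 bp in the windows and 355 bp elsewhere. A region of all 6 libraries lay at a median distance of 16.1 kb in the windows and 9.65 kb elsewhere, and an ethanol peak at 6.69 kb in the windows and 5.28 kb elsewhere. The shares close by ran the other way. A region of all 6 libraries lay within 1 kb for 18.8% in the windows and 12.1% elsewhere. An ethanol peak lay within 1 kb for 5 of 16 (31.2%) in the windows and 19.5% elsewhere. The lowest −log10 q of a member was 4.74, 6.29 and 3.73 in dexamethasone libraries 1 to 3, against lowest values of 2.51, 2.60 and 2.71 in the whole lists. The weakest members thus sat near the caller's limit, while the ABCC11 members had −log10 q of 9.38 or more. The run rule has its own edge: the widest step inside the 5 runs was 48.1 kb, and the next group of 3 regions outside the rule had a step of 51.1 kb. A further run, on chromosome X, met the rule but is not described here.

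Just outside the dexamethasone-only rule, 3 regions of the windows had peaks in 2 dexamethasone but 0 ethanol libraries, and all lay outside the runs. At chr10:114154264-114154556, in the ACSL5 window, the folds were 7.14 and 7.67 in dexamethasone libraries 1 and 2, above all 3 members of the run there. At chr7:107840768-107841096, in the NRCAM window, they were 4.22 and 7.25 in libraries 2 and 3, and at chr7:107988109-107988502 they were 4.30 and 4.36 in the same libraries. No region had 3 dexamethasone and 1 ethanol calls. The shares of these patterns over all merged regions were not determined, so the counts are a description only. A region inside the NRCAM run, chr7:107939676-107940040, named after its values were seen, was called in 3 dexamethasone and 2 ethanol libraries, with folds of 4.78, 5.25 and 7.08 against 6.03 and 4.63 in ethanol libraries 2 and 3.

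The 22 regions called in all 6 libraries show what the loci looked like where both treatments had peaks. Their strength was compared on lists shortened to one length, 58281 peaks, since a percentile shifts with the length of its list. These values come from the same contrast that chose the windows and carry no test. The dexamethasone mean percentile was below the ethanol mean in 16 regions and above it in 6, with a median difference of -4.44 points (dexamethasone minus ethanol) in the windows and -0.19 points over all regions called in all 6 libraries. The share of all such regions with a lower dexamethasone mean was not determined. In 3 regions all dexamethasone percentiles lay below all ethanol percentiles, a pattern of 5.80% of all such regions, and in 1 they lay above, a pattern of 5.55%. The other 18 overlapped. With equally numbered libraries as pairs, dexamethasone lay below ethanol in all 3 pairs in 7 of the 22 regions and above in 2. Over all regions of the genome called in all 6 libraries, 15.0% lay below in all 3 pairs and 13.8% above. In the windows, 4 of the 7 and 1 of the 2 were among the regions whose percentiles overlapped between treatments.

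The largest of these separations was at chr10:99473047-99474489 in the MARVELD1 and ZFYVE27 window, with percentiles of 63.9, 68.5 and 66.6 in dexamethasone libraries 1 to 3 against 79.3, 80.7 and 81.3 in ethanol libraries 1 to 3. Another was at chr16:48198756-48199177 in the ABCC11 window, with 76.3, 76.0 and 67.8 against 82.3, 81.4 and 80.6. At both regions every dexamethasone fold also lay below every ethanol fold. In the same window chr16:48157008-48157494 had 63.4, 71.2 and 72.2 against 76.1, 74.9 and 77.4. Its folds overlapped, with 6.82, 8.52 and 7.68 against 8.31, 8.75 and 8.76. The region that was higher with dexamethasone was chr10:99551557-99552125, at 80.8, 80.0 and 79.6 against 77.0, 76.6 and 76.0, a difference of 3.6 points. Its folds overlapped as well, with 11.52, 11.49 and 10.19 against 10.68, 10.21 and 10.38. The largest mean difference of all 22, 19.3 points higher with dexamethasone, was at chr16:48160915-48161437, a region named after its values were seen, where percentiles of 70.7, 46.6 and 59.7 overlapped the 35.7, 36.3 and 47.0 of the ethanol libraries. The folds there, 7.94, 5.86 and 6.34 against 4.62, 4.93 and 5.47, did not overlap. Overlap in percentile but dexamethasone folds all below ethanol folds was seen at chr10:99461152-99461512, chr10:99491530-99491859, chr10:99519160-99519678, chr7:107999009-107999397 and chr7:134575964-134576448. How often folds separate over all such regions was not determined.

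**Figure D4:**
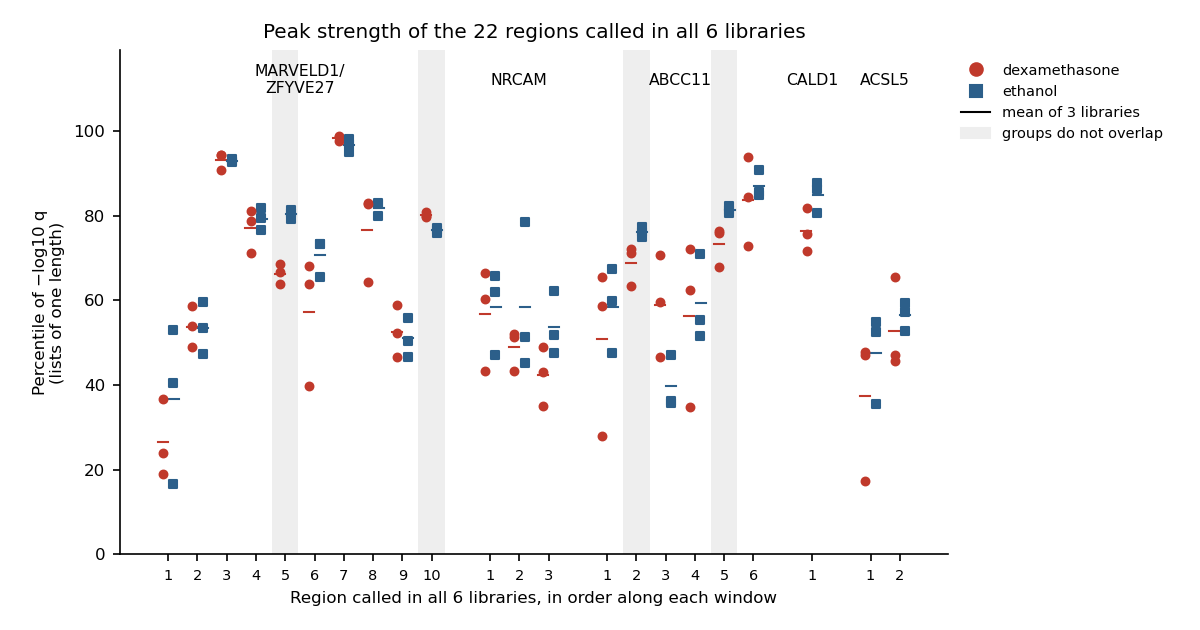
Percentile of −log10 q, on lists of one length, of the 22 regions called in all 6 libraries, with 1 point per library and the mean of 3 libraries as a bar, dexamethasone left of ethanol. Grey columns mark the 4 regions whose percentiles do not overlap between treatments, 3 lower and 1 higher with dexamethasone.

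In 3 windows a dexamethasone-only region lay within 1 kb of a region called in all 6 libraries. These were 3 of 16 (18.8%), against 12.1% of the dexamethasone-only regions elsewhere. In the ABCC11 window only 25 bp separated chr16:48199203-48199615 from the shared region before it, and when peaks were merged across gaps of up to 100 bp it joined that region and was no longer a gained site. The 3 ethanol peaks of the shared region were 359, 385 and 391 bp wide in libraries 1 to 3, and its dexamethasone peaks 370, 363 and 327 bp wide. That all of them ended before the dexamethasone-only region began follows from the merging rule. In the MARVELD1 and ZFYVE27 window the gap was 85 bp and the shared region was 1443 bp wide. There each ethanol library had a single peak of 1106, 1098 and 1250 bp, dexamethasone library 1 had separate peaks of 551 and 436 bp, and dexamethasone libraries 2 and 3 had single peaks of 1443 and 934 bp. In the CALD1 window the gap was 348 bp, and the shared region had percentiles of 81.8, 75.6 and 71.7 with dexamethasone against 87.6, 86.2 and 80.6 with ethanol, which overlapped, though dexamethasone was lower in each of the 3 pairs. All 3 shared regions had a lower dexamethasone mean, by 14.1, 8.1 and 8.4 points in the MARVELD1 and ZFYVE27, ABCC11 and CALD1 windows. Over the genome, 111 shared regions lay within 1 kb of a dexamethasone-only region, these 3 included. Their median difference was -2.12 points, and 12 (10.8%) lay below with dexamethasone and 9 (8.11%) above. Over all regions called in all 6 libraries the shares were 5.80% below and 5.55% above, with a median difference of -0.19 points. A link between nearness to a gained region and these separations was not tested. Within 100 bp, as in the MARVELD1 and ZFYVE27 and the ABCC11 windows, there were 29 such shared regions, with a median difference of -0.07 points, 4 (13.8%) below and 3 (10.3%) above.

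**Figure D5:**
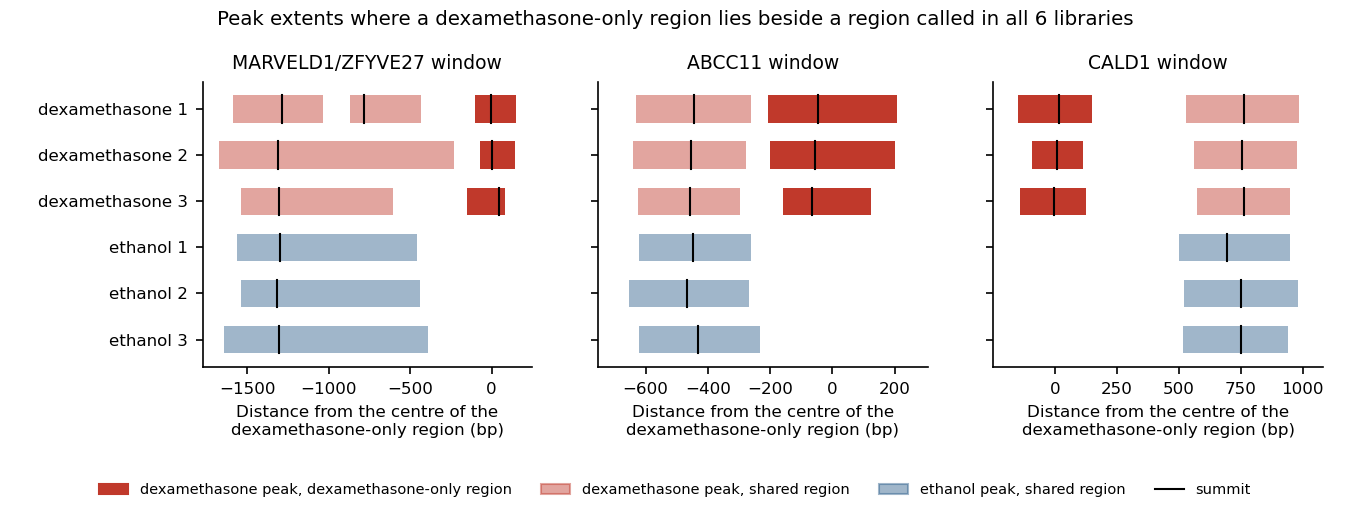
Extent of each library's peaks (rows, dexamethasone above ethanol) in bp from the centre of the dexamethasone-only region, at the 3 places where such a region lies within 1 kb of a region called in all 6 libraries; black lines are summits. The gaps between the merged regions are 85, 25 and 348 bp. That no ethanol peak reaches the dexamethasone-only region follows from its definition.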

How the data were processed

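DNase-seq peaks of 3 dexamethasone and 3 ethanol libraries of A549 cells were analysed from 6 deposited peak lists in hg19, 1 per library. MACS2 2.1.0, Bowtie, CASAVA 1.3 and bedtools are named in the submitters' processing notes; their settings are not given in the sources used here. Fold enrichment at a peak's summit is deposited as a ratio in these lists, and the deposited p-value and q-value stand as −log10. The deposited score was not used. No read counts are given, so no interval or floor was computed. Peaks sharing at least 1 bp were merged with Python 3.11.15 and pandas 2.3.3, and the merging was tested on simulated data. A library with any peak inside a region called it, and its strongest peak by −log10 q gave its values. No 2 lists shared more than 27 identical peaks.

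No test was run, since the windows were chosen from the same calls, and 3 against 3 libraries cannot go below an exact p of 0.1. The named genes were the 6 members. The named regions were those called in all libraries of one treatment and none of the other, the strongest region of all 6 libraries in each window, regions of all 6 libraries whose percentiles did not overlap between treatments, and near misses. The members, lists and rules were chosen with earlier results of these data known. Equally numbered libraries deviated together from their group means over regions of all 6 libraries (correlations of 0.218, 0.122 and 0.16 for numbers 1 to 3), so the numbers were taken to pair them in an alternative count. The labels do not say that a number marks a shared culture or day. Motif searches in the peaks and distances to genes, which need hg19 sequence and annotation, were not run.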

Additional observations from a re-analysis of the deposited data

How the results depend on the processing

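Over 13 alternatives the dexamethasone-only regions in the windows numbered between 13 and 19: 13 with −log10 q of at least 5 or with summits joined, 14 with lists of one length or gaps of up to 100 bp merged, 15 with a cover of at least 50%, and 15 to 18 without 1 library. With the replicate block (at least 2 of 3 numbered pairs) there were 19. Over all merged regions they numbered 897 in the main count and 849 to 979 under the alternatives that kept all libraries, the block aside. Without 1 library they numbered 1205 to 1716, and 3629 with the block. Ethanol-only regions numbered 1 in the main count and under 6 alternatives that kept all libraries, 1 to 3 without 1 library and 5 with the replicate block, whose rule is looser by construction, as is that of counts without a library. Regions of all libraries ranged from 21 to 24 and merged regions from 66 to 76. Of 29 regions followed under the 12 alternatives other than the block, at most 4 moved under any alternative and 0 reversed direction. Staying the same was largely fixed in advance without 1 ethanol library, where 0 of 29 moved. The followed regions had calls in all or no ethanol libraries, so a call difference could change only if a region split. The same held without 1 dexamethasone library for regions called in all or none of the dexamethasone libraries. Few moves are thus no measure of stability there. No reversal was possible for regions called in all 6 libraries, whose call difference was 0. Nor was it possible for dexamethasone-only regions where an alternative only removed peaks or a library. The regions chr16:48160915-48161437 and chr7:107939676-107940040 were not followed. Full lists gave the same numbers of separated shared regions, 3 below and 1 above, and the replicate block 7 below and 2 above; these checks and the counts per window were chosen after seeing the data. Depth is unknown, so peaks near the caller's limit cannot be told from sites just under it.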
